A study of Drosophila melanogaster with 26 samples.

Results

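WT input chromatin of Drosophila embryos was profiled in 7 libraries, which came from 7 batches of chromatin and are called Chromatin1 to Chromatin7 after their labels. The comparison set Chromatin1, 2 and 3 against Chromatin4, 5, 6 and 7. The members are the samples titled as WT input, divided by the number in the title, and their lists hold 4834 of the 50336 peaks deposited for the 26 libraries of the series (3802 peaks in Chromatin1-3 and 1032 in Chromatin4-7). Chromatin1-3 are chromatin batches 1, 2 and 3, on which the 3 libraries with the ACF1 antibody 3F1 were made. Chromatin4-7 are batches 6, 7, 8 and 10, which served for rabbit antibodies against ACF1 or RSF-1 and for pre-immune sera. All 7 batches came from unstaged Oregon-R embryos aged 0 to 12 h, which were wild type and fixed with 3.7% formaldehyde (FA). Each library therefore averaged over all cell types and stages of that time window. The series also holds 2 inputs from acf1-7 embryos (batches 4 and 5) and 1 from rsf1-3602 embryos (batch 9), both alleles being deletions that the labels list under Oregon-R as well, and these 3 mutant inputs are given below as a further reference.

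ACF1 and RSF-1 are regulatory subunits of nucleosome remodelling complexes built on the ATPase ISWI, and the study mapped both by ChIP-seq. Input is the sheared, cross-linked chromatin before any antibody is added, so that a peak in it marks a place where the DNA itself gave more mapped reads than its surroundings. Places of this kind are known to include repeats that are collapsed in the genome assembly and chromatin that shears easily. Release 5 of the genome divides into the chromosome arms 2L, 2R, 3L, 3R, 4 and X, which are mostly euchromatin, and into non-arm sequences. The non-arm sequences are the heterochromatic scaffolds assigned to a chromosome (named Het), the unplaced scaffolds (U) and the mitochondrial genome. Chromosome 4 is a short arm rich in heterochromatin, and the other 5 arms pass into pericentric heterochromatin at their centromere-proximal ends.

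The lists give the position of each peak with no score and no read number, and the part that an input played in its own peak calling is not given in the sources used here. The read depth per library is not in the lists, so that its part in the differences below was not tested. Since each library is its own batch, the group, the batch and the antibody made on that batch cannot be told apart, and the spread given is that between batches. The main comparisons between groups are two-sided exact permutation tests over the 35 ways to divide 7 libraries into 3 and 4. For these tests 0.0286 is the smallest possible p. There were 17 such main tests, of which 9 gave that smallest p. With Benjamini-Hochberg adjustment over the 17 their adjusted p was 0.0540, so that no single measure passed 0.05 after adjustment. The groups are therefore described by whether the libraries overlap and by how much they differ.

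Chromatin1-3 held more peaks than Chromatin4-7, and the excess was largest on the chromosome arms. There were 398, 2359 and 1045 peaks in Chromatin1, 2 and 3, against 250, 263, 254 and 265 in Chromatin4, 5, 6 and 7. Every list of Chromatin1-3 was longer than every list of Chromatin4-7, although the shortest of them, Chromatin1, was only 1.5-fold longer than the longest of Chromatin4-7. The mean was 1267 ± 999 peaks in Chromatin1-3 and 258 ± 7.16 in Chromatin4-7 (SD, n = 3 and n = 4). The mutant inputs held 193 to 221 peaks, slightly below the Chromatin4-7 lists. On the log2 scale the groups differed by 1.95, a ratio of geometric means of 3.85 (exact permutation p = 0.0286, n = 3 and n = 4). This ratio was 2.5 without Chromatin2 and 6.09 without Chromatin1, and between 3.76 and 3.89 when any other library was left out.

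On the arms Chromatin1, 2 and 3 had 115, 1391 and 486 peaks, against 28, 47, 30 and 40 in Chromatin4, 5, 6 and 7. The ratio of geometric means was 12.0 (log2 difference 3.59, exact permutation p = 0.0286), 6.67 without Chromatin2 and 23.2 without Chromatin1. The 3 mutant inputs, with 31 to 43 arm peaks, lay in the range of Chromatin4-7. The number of non-arm peaks was 283, 968 and 559 in Chromatin1, 2 and 3, against 222, 216, 224 and 225 in Chromatin4, 5, 6 and 7. These groups did not overlap either, with a smaller ratio of 2.41 (log2 difference 1.27, exact permutation p = 0.0286), which was 1.79 without Chromatin2 and 3.32 without Chromatin1.

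**Figure D1:**
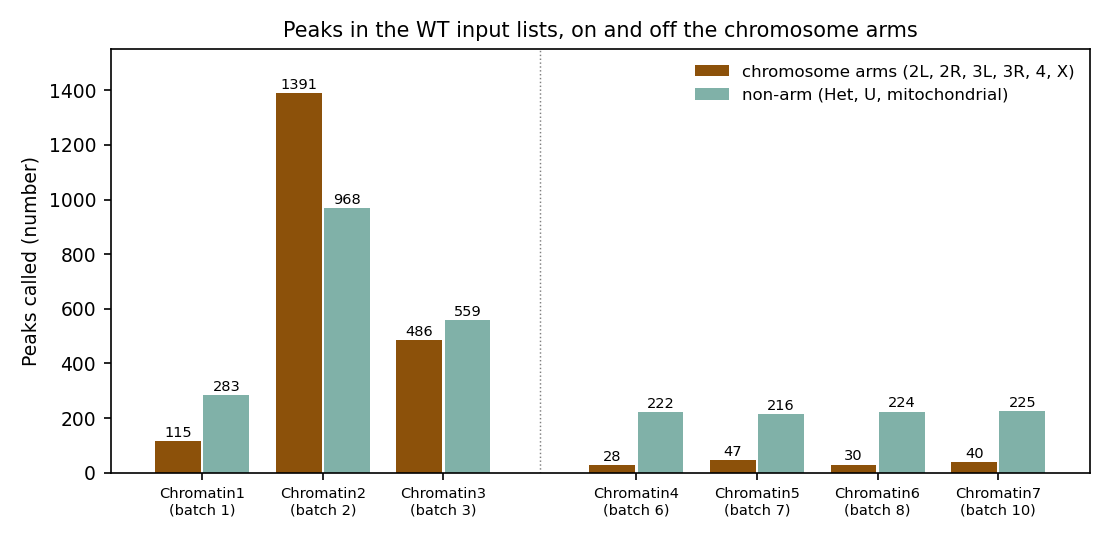
Number of peaks (y axis, linear from 0) on the chromosome arms (brown) and on non-arm sequences (green) in each WT input library, Chromatin1-3 left and Chromatin4-7 right of the dotted line. Non-arm peaks number 216 to 225 in all Chromatin4-7 lists, and arm peaks exceed non-arm peaks only in Chromatin2 (1391 and 968).

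The share of peaks on the arms differed accordingly. It was 28.9% in Chromatin1 (exact 95% interval 24.5 to 33.6%), 59.0% in Chromatin2 (56.9 to 61.0%) and 46.5% in Chromatin3 (43.4 to 49.6%). In Chromatin4, 5, 6 and 7 it was 11.2% (7.57 to 15.8%), 17.9% (13.4 to 23.0%), 11.8% (8.11 to 16.4%) and 15.1% (11.0 to 20.0%). The intervals are Clopper-Pearson intervals that cover counting error only and take peaks as independent. No interval of Chromatin1-3 met one of Chromatin4-7. The mean was 44.8% ± 15.1 in Chromatin1-3 and 14.0% ± 3.10 in Chromatin4-7 (SD), a difference of 30.8 percentage points (exact permutation p = 0.0286, n = 3 and n = 4). Within Chromatin1-3 the order of the arm shares was that of the list lengths, the longest list having the highest share.

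Among the non-arm sequences the scaffolds assigned to chromosomes differed more than the unplaced ones. Het scaffolds carried 95, 491 and 273 peaks in Chromatin1, 2 and 3, against 58, 55, 52 and 62 in Chromatin4, 5, 6 and 7, a ratio of geometric means of 4.12. U carried 185, 474 and 282 peaks in Chromatin1, 2 and 3, against 164, 161, 172 and 161 in Chromatin4, 5, 6 and 7, a ratio of 1.77. On U, Chromatin1 thus lay only 13 peaks above Chromatin6. The mitochondrial genome, which is present in many copies per cell and is not packed into nucleosomes, carried 3, 3 and 4 peaks in Chromatin1, 2 and 3, against 0, 0, 0 and 2 in Chromatin4, 5, 6 and 7. The ratios of Het and U were not tested against each other.

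Taken one sequence at a time, every Chromatin1-3 list held more peaks than every Chromatin4-7 list on 11 of 14 sequences (78.6%). The 3 exceptions were chromosome 4 and the small scaffolds XHet and YHet, of which the last 2 had 5 peaks or fewer in any library. The ratio between groups varied widely among the arms. On 3R there were 14, 241 and 65 peaks in Chromatin1, 2 and 3, against 0, 2, 0 and 1 in Chromatin4, 5, 6 and 7. That arm, the longest, with 23.2% of the arm length, was thus almost free of input peaks in Chromatin4-7 and carried 320 in Chromatin1-3 together. 3L had 35, 308 and 125 peaks in Chromatin1, 2 and 3, against 2, 7, 3 and 4 in Chromatin4, 5, 6 and 7, a ratio of means of 39.0. The ratio of means was 21.6 on 2L, 15.3 on 2R and 12.5 on X.

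Chromosome 4 departed from the other arms in that its peak number was alike in both groups. It had 4, 7 and 5 peaks in Chromatin1, 2 and 3, against 2, 3, 7 and 9 in Chromatin4, 5, 6 and 7, with means of 5.33 and 5.25. As a share of arm peaks this came to 3.48, 0.503 and 1.03% in Chromatin1, 2 and 3, against 7.14, 6.38, 23.3 and 22.5% in Chromatin4, 5, 6 and 7. The shares did not overlap, with a difference of -13.2 percentage points (exact permutation p = 0.0857, adjusted 0.0971). Chromosome 4 makes up 1.1% of the arm length, so that its peak density in Chromatin4-7, 1.51 to 6.80 peaks per Mb, exceeded that of every other arm in the same libraries. The same held in Chromatin1, with 3.02 peaks per Mb on chromosome 4 and 0.502 to 1.43 on the other 5 arms. In Chromatin3 the density on chromosome 4, 3.78 peaks per Mb, lay within the 2.33 to 5.44 of the other arms, and in Chromatin2, with 5.29 peaks per Mb, it lay below their 8.64 to 14.6.

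X carried 23, 316 and 111 peaks in Chromatin1, 2 and 3, against 11, 13, 13 and 11 in Chromatin4, 5, 6 and 7. Its share of arm peaks was 20.0, 22.7 and 22.8% in Chromatin1, 2 and 3, close to its 18.6% of the arm length. In Chromatin4, 5, 6 and 7 the share was 39.3, 27.7, 43.3 and 27.5%, above all values of Chromatin1-3. The difference was -12.6 percentage points (exact permutation p = 0.0857, adjusted 0.0971).

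**Figure D2:**
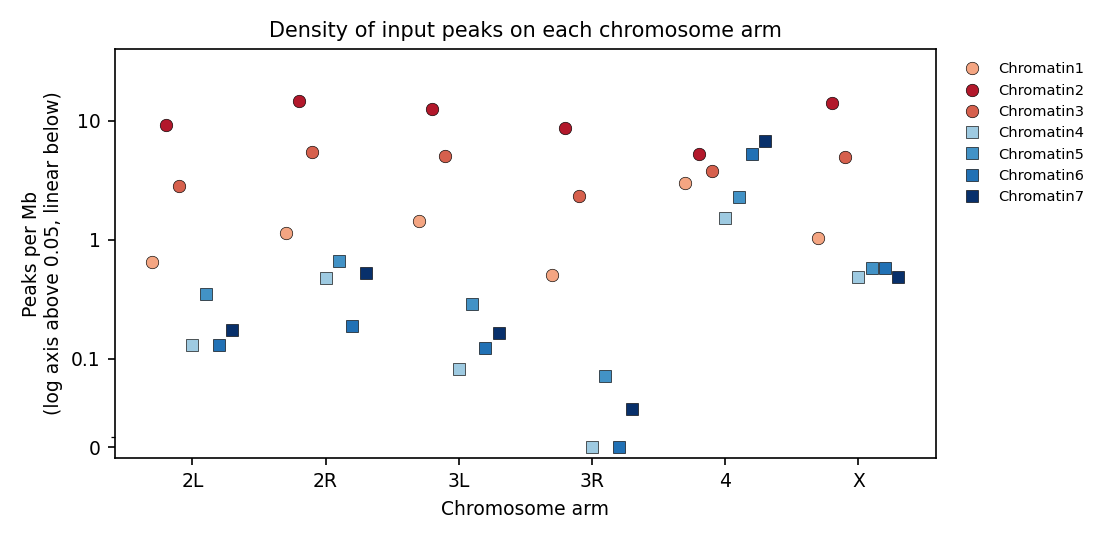
Peaks per Mb on each chromosome arm (y axis, logarithmic above 0.05 and linear below it, so that 0 can be shown) in the WT inputs, Chromatin1-3 as red circles and Chromatin4-7 as blue squares. The groups are apart on 2L, 2R, 3L, 3R and X and intermingled on chromosome 4, and 2 of the Chromatin4-7 lists have no peak on 3R.

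Across all 6 arms, the distance of the peaks from an even spread was measured as the percentage of arm peaks that would have to move for each arm to hold peaks in proportion to its length. It was 17.1, 10.4 and 15.6% in Chromatin1, 2 and 3, against 44.8, 26.5, 46.9 and 40.2% in Chromatin4, 5, 6 and 7. The groups did not overlap, and the difference was -25.3 percentage points (exact permutation p = 0.0571, adjusted 0.0810). The Chromatin4-7 values rest on 28 to 47 arm peaks each, and the part of list length in them was not tested. With every list reduced to its first 250 entries, as described at the end, the difference was -26.4 percentage points (exact permutation p = 0.0571).

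The arm peaks of Chromatin4-7 were also more clustered along the arms than those of Chromatin1-3. The median gap between neighbouring arm peaks was 198, 36.0 and 72.2 kb in Chromatin1, 2 and 3, against 30.9, 72.0, 26.4 and 30.9 kb in Chromatin4, 5, 6 and 7. The lists of Chromatin4-7, with far fewer peaks, thus had median gaps as short as those of the long lists. The mean gap, which depends on the number of peaks and on the distance between the outermost peaks of each arm, was 994, 85.6 and 241 kb in Chromatin1, 2 and 3, against 2378, 1737, 1111 and 2022 kb in Chromatin4, 5, 6 and 7. The ratio of the median to the mean gap, which falls as peaks cluster and depends on the outermost peaks as well, was 0.199, 0.421 and 0.30 in Chromatin1, 2 and 3, against 0.0130, 0.0414, 0.0238 and 0.0153 in Chromatin4, 5, 6 and 7. The groups did not overlap, with a difference of 0.283 (exact permutation p = 0.0286, n = 3 and n = 4). Without chromosome 4 the difference was 0.199 (exact permutation p = 0.0857).

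Gaps under 10 kb made up 21.1, 28.1 and 22.9% of all gaps in Chromatin1, 2 and 3, against 34.8, 39.0, 48.0 and 38.2% in Chromatin4, 5, 6 and 7. For gaps under 1 kb the values were 6.42, 6.35 and 5.21% in Chromatin1, 2 and 3, against 8.70, 14.6, 12.0 and 17.6% in Chromatin4, 5, 6 and 7. Neither share overlapped between the groups. The shares in Chromatin4-7 rest on 2 to 6 gaps under 1 kb and 8 to 16 gaps under 10 kb per library, and they were not tested.

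Arm peaks were frequent within 1 Mb of the centromere-proximal end of the assembled arms, and more so in Chromatin4-7. On the 5 long arms, 32.4, 15.2 and 22.7% of the peaks of Chromatin1, 2 and 3 fell within 1 Mb of the centromere-proximal end, against 53.8, 56.8, 56.5 and 54.8% in Chromatin4, 5, 6 and 7. These windows make up 4.20% of the length of the 5 arms, so that all 7 libraries had more peaks there than an even spread would give. The mean was 23.4% ± 8.62 in Chromatin1-3 and 55.5% ± 1.41 in Chromatin4-7 (SD), a difference of -32.1 percentage points (exact permutation p = 0.0286, n = 3 and n = 4). This measure was chosen after the positions had been seen. With a window of 2 Mb the difference was -29.6 percentage points (exact permutation p = 0.0286), and with a window of 0.5 Mb it was -7.17 percentage points (exact permutation p = 0.257). Within 0.5 Mb the groups overlapped, with 10.8, 8.31 and 12.5% in Chromatin1, 2 and 3, against 23.1, 25.0, 13.0 and 9.68% in Chromatin4, 5, 6 and 7. In the mutant inputs 43.5 to 62.5% of the long-arm peaks lay within 1 Mb.

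In numbers, the proximal windows held 36, 211 and 109 peaks in Chromatin1, 2 and 3, against 14, 25, 13 and 17 in Chromatin4, 5, 6 and 7, a ratio of geometric means of 5.63. The remainder of the long arms held 75, 1173 and 372 peaks in Chromatin1, 2 and 3, against 12, 19, 10 and 14 in Chromatin4, 5, 6 and 7, a ratio of 23.9. Without Chromatin2 the ratios were 3.76 in the windows and 12.5 elsewhere, and without Chromatin1 they were 9.09 and 49.4. The peak number of Chromatin1-3 was thus higher in both zones, and by more in the zone outside the proximal windows. As densities, Chromatin2 had 42.2 peaks per Mb in the proximal windows and 10.3 per Mb elsewhere, whereas Chromatin4 had 2.8 and 0.105.

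The proximal peaks were not evenly divided among the arms. On 2R, 11 of 24, 60 of 308 and 33 of 115 peaks of Chromatin1, 2 and 3 were proximal, against 5 of 10, 9 of 14, 3 of 4 and 7 of 11 in Chromatin4, 5, 6 and 7. On 3R only 1 of 14, 14 of 241 and 8 of 65 peaks of Chromatin1, 2 and 3 were proximal, and none of the 3 peaks that Chromatin4-7 had on that arm. The 100 kb window with the most peaks lay near the proximal end of 2R (positions 100001 to 200000) in Chromatin2, 4 and 5. This window held 3, 11 and 6 peaks in Chromatin1, 2 and 3, against 4, 6, 1 and 1 in Chromatin4, 5, 6 and 7. For Chromatin6 and 7 the densest windows were on chromosome 4, at 1200001 to 1300000 in Chromatin6 (4 peaks) and at 1300001 to 1400000 in Chromatin7 (5 peaks). For Chromatin1 and 3 they were again on 2R, at 700001 to 800000 with 4 peaks and at 200001 to 300000 with 8 peaks. In Chromatin1, 2, 3, 4 and 6 another window held as many peaks.

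**Figure D3:**
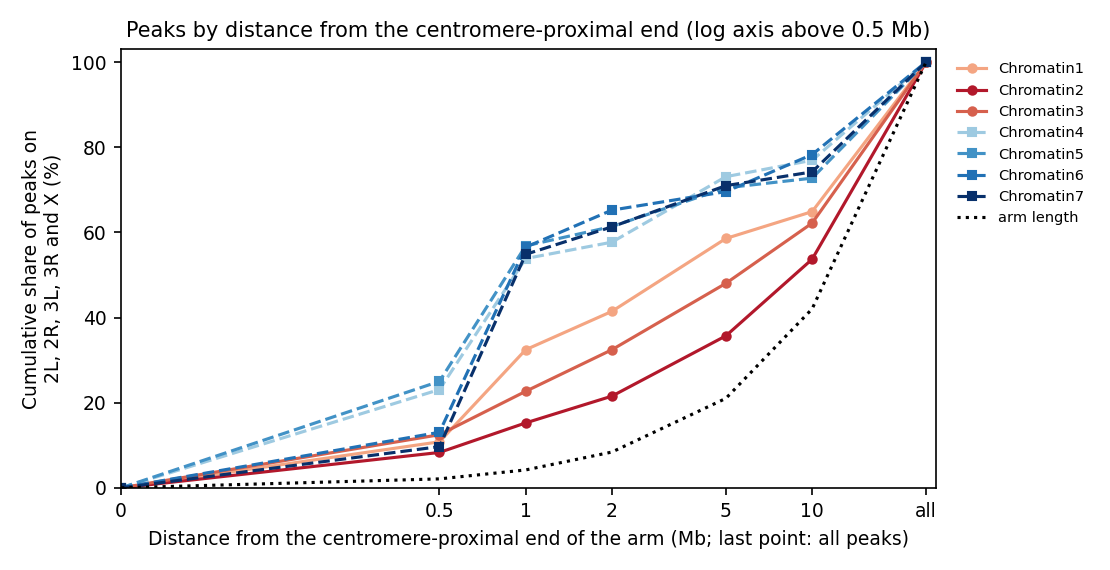
Cumulative percentage of the peaks on 2L, 2R, 3L, 3R and X (y axis) by distance from the centromere-proximal end of the arm in Mb (x axis, logarithmic above 0.5 Mb), with Chromatin1-3 in red, Chromatin4-7 in blue and the arm length as a dotted line. At 1 Mb the Chromatin4-7 lists reach 53.8 to 56.8% and the Chromatin1-3 lists 15.2 to 32.4%, while at 0.5 Mb the groups overlap.

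Sharing was read as an overlap of at least 50 bp between peaks, nearly all of which are 200 bp wide. The 3 lists of Chromatin1-3 were largely nested in one another. On the arms, 70.4% of the 115 peaks of Chromatin1 were found in Chromatin2 and 73.0% in Chromatin3, and 76.5% of the 486 peaks of Chromatin3 were found in Chromatin2. Read from the longer lists, 5.82% of the peaks of Chromatin2 and 17.3% of those of Chromatin3 were found in Chromatin1, and 26.7% of those of Chromatin2 were found in Chromatin3. Off the arms, 80.9 to 83.2% of the shorter list was found in the longer one in the 3 pairs.

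The 4 lists of Chromatin4-7, of similar length, shared a smaller part of the shorter list on the arms. In their 6 pairs, 20.0 to 67.9% of the shorter list was found in the other (median 39.8%). Read from the longer list, the share was 17.0 to 40.4%, against 5.82 to 26.7% in the Chromatin1-3 pairs. Which group agrees more on the arms thus depends on the list taken as the base. Chromatin4 and Chromatin5 (batches 6 and 7) shared the most, with 67.9% of the 28 peaks of Chromatin4 and 40.4% of the 47 peaks of Chromatin5. Chromatin6 and Chromatin7 (batches 8 and 10) followed, with 50% of the 30 peaks of Chromatin6 and 37.5% of the 40 peaks of Chromatin7. Off the arms the range was 53.2 to 77.3% (median 56.5%), and Chromatin4 and Chromatin5 were again the closest pair, with 75.2 and 77.3% of their peaks shared.

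In the 12 pairs across the groups, 25.5 to 57.1% of the arm peaks of the shorter list, always that of Chromatin4-7, were found in the longer one (median 34.2%). Off the arms it was 51.4 to 68.5% (median 56.8%). For the Chromatin4-7 lists, the medians with Chromatin1-3 lists thus lay close to those with one another. From the other side, 0.863 to 13.9% of the arm peaks of a Chromatin1-3 list were found in a given Chromatin4-7 list. Over all 21 pairs, overlap within groups exceeded that across groups by 13.6 percentage points on the arms (exact permutation p = 0.0571, adjusted 0.0810). Off the arms the excess was 8.45 percentage points (exact permutation p = 0.0857, adjusted 0.0971). On the arms the mean overlap was 73.3% within Chromatin1-3, 42.2% within Chromatin4-7 and 38.9% across the groups. Off the arms these means were 82.0, 59.4 and 58.5%. The excess thus came mostly from the 3 nested pairs of Chromatin1-3. With a single library left out, the excess within over across groups was 7.16 (without Chromatin3) to 21.6 (without Chromatin4) on the arms. Off the arms it was 3.90 (without Chromatin3) to 14.3 (without Chromatin6). With every list reduced to its first 250 entries, the excess was 11.6 on the arms and 12.2 off them (exact permutation p = 0.0286 for each).

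**Figure D4:**
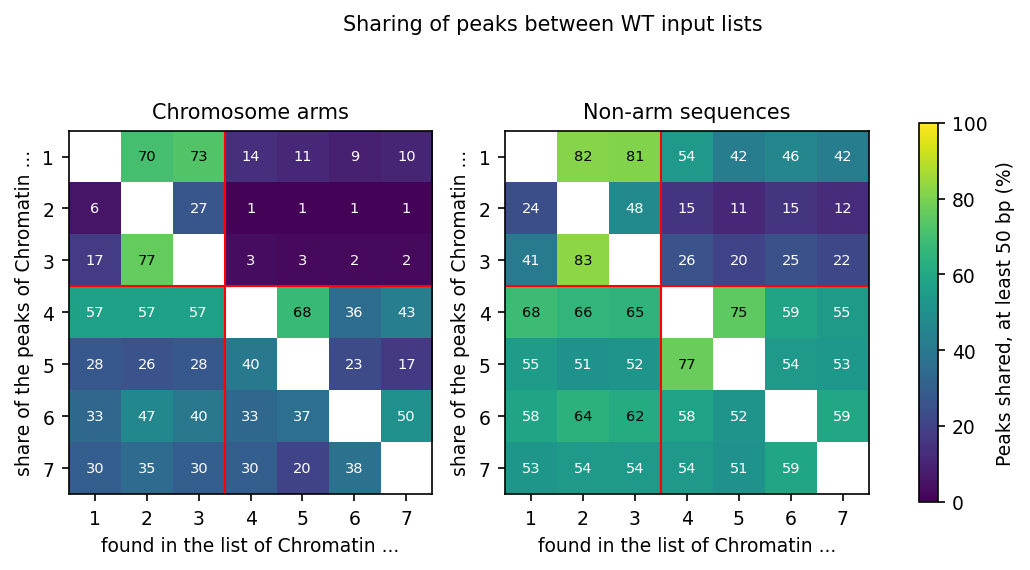
Percentage of the peaks of each WT input list (rows) that overlap by at least 50 bp a peak of another list (columns), for chromosome arms (left) and non-arm sequences (right), where red lines divide Chromatin1-3 from Chromatin4-7. Rows of Chromatin2 are low because its list is long (1391 arm peaks), and within Chromatin4-7 the pair of Chromatin4 and Chromatin5 stands out.

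With another WT input of either group, 80.9, 27.7 and 78.0% of the arm peaks of Chromatin1, 2 and 3 were shared, against 92.9, 51.1, 90.0 and 62.5% in Chromatin4, 5, 6 and 7. The groups overlapped (difference -11.9 percentage points, exact permutation p = 0.571). Off the arms, 95.1, 51.8 and 87.7% of the peaks of Chromatin1, 2 and 3 were shared, against 96.4, 87.5, 88.4 and 80.4% in Chromatin4, 5, 6 and 7 (difference -10.0 percentage points, exact permutation p = 0.571). The difference ranged from -32.9 (without Chromatin3) to -1.06 (without Chromatin6) on the arms, and from -26.4 (without Chromatin3) to -3.85 (without Chromatin4) off them, when a library was left out. Chromatin2 was the lowest in each case, so that most of the arm peaks of the longest list had no counterpart in any other WT input.

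Merging the peaks of the 7 lists gave 2833 regions, 1583 on the arms and 1250 off them. On the arms, 1490 regions were called in Chromatin1-3 alone, 55 in Chromatin4-7 alone and 38 in both. Of the arm regions, 1178 were in a single library, and 1006 of these in Chromatin2. Off the arms, 841 regions were in Chromatin1-3 alone, 165 in Chromatin4-7 alone and 244 in both. The non-arm regions thus made up most of those common to the groups, with 75 regions in all 7 libraries, against 6 on the arms.

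Regions that separate the groups completely were a small part of all merged regions, and not many could qualify. All 3 Chromatin1-3 inputs had 80 regions in common on the arms and 223 off them, whatever was called in Chromatin4-7. All 4 Chromatin4-7 inputs had 7 regions in common on the arms and 96 off them. On the arms, 60 regions (3.79%) were in all 3 Chromatin1-3 inputs and in no Chromatin4-7 input, and none (0%) in all 4 Chromatin4-7 inputs and in no Chromatin1-3 input. Off the arms, these counts were 61 regions (4.88%) and 7 regions (0.56%). The counts of 60 and 61 depend on the shortest list, since without Chromatin1 they were 345 on the arms and 276 off them. The count of 7 regions off the arms in Chromatin4-7 alone was 15 without Chromatin1 and 12 without Chromatin7. With an overlap of at least 150 bp, 36 arm regions were in all 3 Chromatin1-3 inputs alone. The number of merged regions changes with the lists and the overlap. Shares are given for the main setting only, so the other counts cannot be read as shares.

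The 6 arm regions called in all 7 WT inputs were all on X, and positions here and below are those of Release 5. One lay at the distal end, from 13773 to 14057, and another from 15912280 to 15912481. The other 4 lay within 1 Mb of the centromere-proximal end, from 21682318 to 21682875, from 21802823 to 21803336, from 21803907 to 21804133 and from 21834807 to 21835048. All 6 were also called in at least 1 mutant input. The region from 21834807 to 21835048 was the first entry of each of the 7 lists and was called in the 3 mutant inputs and in all 13 libraries made with an ACF1 or RSF-1 antibody. The region from 15912280 to 15912481 was the least common outside the WT inputs, with 1 mutant input and 3 antibody libraries.

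Of the arm regions in all 3 Chromatin1-3 inputs and no Chromatin4-7 input, the first 5 by position were on 2L. They ran from 52874 to 53145, from 355482 to 355799, from 357765 to 358022, from 975904 to 976117 and from 2111586 to 2111892. The region from 357765 to 358022 was in 12 antibody libraries and 1 mutant input, whereas none of the other 4 was in any antibody library or mutant input. Of these 4, the region from 52874 to 53145 was in 1 pre-immune library and that from 2111586 to 2111892 in 2. The regions from 355482 to 355799 and from 975904 to 976117 were in no pre-immune library. Chromatin7 had a peak beside the region from 355482 to 355799 that did not overlap it. Of all 60 such arm regions, 25.0% were in an antibody library and 3.33% in a mutant input. For all 1490 arm regions in Chromatin1-3 alone, these shares were 8.05 and 0.537%. Off the arms, the first 5 lay on 2LHet from 188152 to 188353 and on 2RHet from 456879 to 457251, from 1359974 to 1360220, from 2157900 to 2158201 and from 2588106 to 2588400. None of these 5 was called in a mutant input, and each was in 2 antibody libraries at most. Of all 61 such non-arm regions, 36.1% were in an antibody library and 9.84% in a mutant input. For all 841 non-arm regions in Chromatin1-3 alone, these shares were 8.80 and 1.19%.

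Regions in all 4 Chromatin4-7 inputs alone were found off the arms only, and the first 5 of the 7 were on 2RHet, 3RHet and U. They ran from 2598827 to 2599123 on 2RHet, from 2070399 to 2070659 on 3RHet, and from 5632022 to 5632386, from 6559958 to 6560194 and from 6621684 to 6621960 on U. All 7 were called in a mutant input and in an antibody library as well. Of all 165 non-arm regions in Chromatin4-7 alone, 46.1% were in a mutant input and 81.2% in an antibody library. For the 75 non-arm regions in all 7 WT inputs, these shares were 97.3 and 100%. The 5 regions named were in 5 to 11 antibody libraries each.

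A smaller share of the peaks of Chromatin1-3 than of Chromatin4-7 recurred in libraries outside the WT inputs. With a mutant input, 12.2, 1.29 and 3.50% of the arm peaks of Chromatin1, 2 and 3 were shared, against 42.9, 27.7, 63.3 and 55.0% in Chromatin4, 5, 6 and 7. The groups did not overlap (difference -41.6 percentage points, exact permutation p = 0.0571, adjusted 0.0810). Off the arms, 47.0, 14.2 and 24.2% of the peaks of Chromatin1, 2 and 3 were shared with a mutant input, against 64.4, 67.1, 71.0 and 72.0% in Chromatin4, 5, 6 and 7. The difference was -40.2 percentage points (exact permutation p = 0.0286).

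In numbers, the peaks shared with a mutant input varied much less than the list lengths. On the arms they were 14, 18 and 17 in Chromatin1, 2 and 3, against 12, 13, 19 and 22 in Chromatin4, 5, 6 and 7. Off the arms they were 133, 137 and 135 in Chromatin1, 2 and 3, against 143, 145, 159 and 162 in Chromatin4, 5, 6 and 7. The 3 lists of Chromatin1-3, of 398 to 2359 peaks, thus held nearly equal numbers of these recurrent peaks. The low percentages of the long lists came with the larger number of their other peaks. The mutant lists hold 31 to 43 arm peaks and 162 to 186 non-arm peaks each, which caps the share that a long list can reach. The differences in these shares are thus not separate from peak number.

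For the antibody libraries the shares were again lower in Chromatin1-3, but the numbers of shared arm peaks were not. These libraries are 13, with antibodies against ACF1 or RSF-1 from WT and mutant embryos. A peak in at least 1 of them was found for 36.5, 7.91 and 14.8% of the arm peaks of Chromatin1, 2 and 3, against 85.7, 89.4, 80 and 70% in Chromatin4, 5, 6 and 7 (difference -61.5 percentage points, exact permutation p = 0.0286). These were 42, 110 and 72 peaks in Chromatin1, 2 and 3, against 24, 42, 24 and 28 in Chromatin4, 5, 6 and 7. In numbers, no Chromatin1-3 list thus lay below a Chromatin4-7 list. Off the arms the share was 65.0, 23.0 and 37.4% in Chromatin1, 2 and 3, against 94.6, 98.1, 84.4 and 80.4% in Chromatin4, 5, 6 and 7 (difference -47.6 percentage points, exact permutation p = 0.0286). The corresponding numbers were 184, 223 and 209 in Chromatin1, 2 and 3, against 210, 212, 189 and 181 in Chromatin4, 5, 6 and 7, and here the groups overlapped.

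The antibody 3F1 was used on the chromatin of Chromatin1-3 itself. With the 3F1 library of their own batch, 17 of 115 (14.8%), 46 of 1391 (3.31%) and 14 of 486 (2.88%) of the arm peaks of Chromatin1, 2 and 3 were shared. For any of the 3 3F1 libraries, the shares were 27, 3.52 and 9.26% in Chromatin1, 2 and 3, against 71.4, 63.8, 43.3 and 35% in Chromatin4, 5, 6 and 7, whose chromatin was not used for 3F1. The order was the reverse in numbers of arm peaks, with 31, 49 and 45 in Chromatin1, 2 and 3, against 20, 30, 13 and 14. With any of the 3 libraries of pre-immune serum, 10.4, 0.719 and 2.47% of the arm peaks of Chromatin1, 2 and 3 were shared, against 46.4, 42.6, 46.7 and 40% in Chromatin4, 5, 6 and 7. These were 12, 10 and 12 peaks in Chromatin1, 2 and 3, against 13, 20, 14 and 16. One of the pre-immune lists has a single peak.

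**Figure D5:**
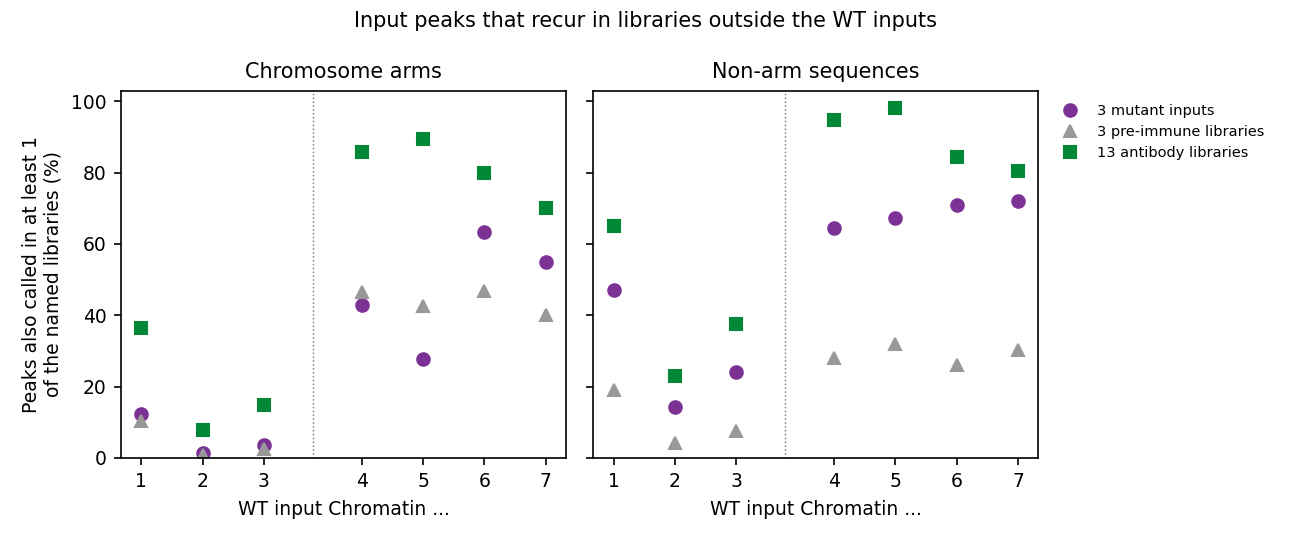
Percentage of the peaks of each WT input (y axis) that overlap by at least 50 bp a peak of any of 3 mutant inputs (circles), 3 pre-immune libraries (triangles) or 13 antibody libraries (squares), on the arms (left) and off them (right). Chromatin4-7, right of the dotted line, lie above Chromatin1-3 for each kind of library, and Chromatin2 is the lowest throughout.

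Counted by region, the shares also differed between the regions called in 1 group alone. Of the 1490 arm regions in Chromatin1-3 alone, 8.05% were also called in an antibody library and 0.537% in a mutant input. Of the 55 arm regions in Chromatin4-7 alone, these shares were 76.4 and 21.8%. In numbers the antibody order was the reverse, with 120 arm regions of Chromatin1-3 alone and 42 of Chromatin4-7 alone. With a mutant input there were 8 and 12. Off the arms, 8.80% of the 841 regions in Chromatin1-3 alone were in an antibody library and 1.19% in a mutant input, against 81.2 and 46.1% of the 165 regions in Chromatin4-7 alone. Those were 74 and 10 regions of Chromatin1-3 alone, against 134 and 76 of Chromatin4-7 alone. Like the shares of peaks, these shares of regions are not separate from peak number. Most of the Chromatin1-3 regions were in Chromatin2 and no other WT input, 1006 on the arms and 467 off them. Regions in both groups were in an antibody library in 73.7% of 38 cases on the arms and 83.2% of 244 off them. In a mutant input they were found in 47.4 and 63.5%. The arm regions common to all 3 Chromatin1-3 inputs and absent from Chromatin4-7 were in an antibody library in 25.0% of 60 cases and in a mutant input in 3.33%. These regions were not tested, since those of 1 library share its chromatin and its calling.

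The lists are only partly in the order of position, with 8.99 to 37.3% of rows out of that order in the WT inputs. When each list was reduced to its first 250 entries, the length of the shortest, arm peaks still made up 23.6, 36.0 and 34.4% of Chromatin1, 2 and 3, against 11.2, 18.4, 12.0 and 16.0% of Chromatin4, 5, 6 and 7 (difference 16.9 percentage points, exact permutation p = 0.0286). The share within 1 Mb of the centromere-proximal end was 23.6, 21.2 and 15.9% in these entries of Chromatin1, 2 and 3, against 53.8, 58.1, 56.5 and 54.8% in those of Chromatin4, 5, 6 and 7 (difference -35.6 percentage points, exact permutation p = 0.0286). The arm excess was thus present in the first 250 entries but smaller, with a log2 difference in arm peaks of 1.13 against 3.59 in the full lists. The lower proximal share of Chromatin1-3 was present there as well. The first 250 entries are nearly all of each Chromatin4-7 list but a small part of the 2359 entries of Chromatin2. The part of list length was therefore not tested. This selection was added after the lists had been seen, and what ranks the entries is not given in the sources used here. The reduction may also select by position, which was not tested. The X share of arm peaks was 28.8, 12.2 and 14.0% in the first 250 entries of Chromatin1, 2 and 3. In their full lists it was 20.0, 22.7 and 22.8%.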

How the data were processed

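ChIP-seq and input libraries were prepared by the authors from sheared chromatin of fixed embryos. Per the labels and the study's methods, the authors mapped reads to Release 5 with Bowtie 1.1.1, kept those with a single hit, and called peaks by HOMER with its defaults. The deposited lists give chromosome, start and end, with 1 list per library and no score. Deposited starts were taken as counted from 0 and are printed plus 1. Peaks of the 7 WT inputs were counted by sequence, with arm length taken as the highest peak end on each arm over all lists. Peaks were shared if at least 50 bp overlapped. Gaps were measured between the centres of neighbouring peaks on an arm. Groups were compared by two-sided exact permutation of the library labels, with Benjamini-Hochberg adjustment over the 17 main tests and a threshold of 0.05. Tests under alternative settings were not adjusted. Shares carry exact 95% Clopper-Pearson intervals.

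The regions named were, on the arms, those called in all 7 WT inputs, and, on and off the arms, the first 5 by position called in every input of a group and none of the other, together with the 100 kb arm window with the most peaks in each library. The members, the lists and this rule were chosen with earlier results of these data known, and the proximal windows and the reduction to 250 entries were chosen after seeing the data. Alternatives were other overlaps, chromosome 4 left out, mutant inputs added, another measure of pair overlap, and the omission of single libraries. Measures and tests were computed with numpy 2.4.6 and scipy 1.17.1 under Python 3.11.15, figures were drawn with matplotlib 3.10.9, and the code was tested on simulated peak lists. Genes and sequences at the regions are not given, since the only annotation used here is for Release 6.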

Additional observations from a re-analysis of the deposited data

How the results depend on the processing

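No paired analysis was possible because the groups share no replicate number or batch. Of 78 alternatives other than leaving out a library, 62 kept direction, side of 0.05 and, for counts, size. Leaving out chromosome 4 gave a difference in median over mean gap of 0.199 (exact permutation p = 0.0857), and a proximal window of 0.5 Mb gave -7.17 percentage points. With the mutant inputs added to Chromatin4-7 (120 splits), the differences in X share, chromosome 4 share and distance from an even spread were -10.7, -14.8 and -23.7 percentage points (exact permutation p = 0.0333, 0.0417 and 0.00833). Pair overlap as a percentage of merged regions gave 15.4 on the arms and 17.3 off them, a measure capped by unequal list length across the groups and thus not separate from peak number. An overlap of 150 bp left 36 arm regions in all Chromatin1-3 inputs alone, a count given without its share of merged regions.

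In the first 250 entries, a selection added after seeing the data, the log2 number of non-arm peaks differed by -0.32, which follows from the higher arm share at equal length. The difference in non-arm peaks shared with another WT input was 10.6 percentage points there (exact permutation p = 0.0571), opposite in sign to the full lists, and the cause was not tested. Non-arm peaks in antibody peaks differed by -14.7 percentage points (exact permutation p = 0.0571), and pair overlap by 11.6 on the arms and 12.2 off them. Regions in every input of a group alone were 8 on the arms and 18 off them for Chromatin1-3. For Chromatin4-7 they were 14 off the arms. The share of all merged regions in the first 250 entries is not given, so these counts cannot be set against those of the full lists.

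Leaving out a library reversed none of the 17 differences, but with 6 libraries the smallest p is 0.0667 or 0.1, so no call could be made. The ranges were 1.32 to 2.61, 2.74 to 4.54 and 0.84 to 1.73 (log2 numbers of all, arm and non-arm peaks), 23.7 to 38.7 (arm share), 0.226 to 0.337 (gap ratio), -49.5 to -33.1 (non-arm peaks shared with mutant inputs), -69.9 to -55.6 and -59.2 to -38.2 (arm and non-arm peaks in antibody peaks) and -36.6 to -28.0 (proximal share). Sharing with another WT input ranged from -32.9 to -1.06 on the arms and -26.4 to -3.85 off them, and pair overlap from 7.16 to 21.6 and from 3.90 to 14.3 (highest exact permutation p = 1 and 0.533). Regions in every Chromatin1-3 input alone numbered 61 to 345 on the arms and 62 to 276 off them, and those in every Chromatin4-7 input alone 0 to 2 and 7 to 15. These counts are given without their shares of merged regions.

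Neither the reads of a library nor a score per peak were used, and their part in the differences was not tested. The Chromatin4-7 arm values rest on 28 to 47 peaks each.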

Other observations

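In the lists of Chromatin1-3, the first entries were more often shared with Chromatin4-7 than the later ones. Merging the first 10 entries of the 7 WT inputs gave 20 regions, of which 3 were in all 7 lists, the first 50 gave 99 regions with 20 in all 7, and the first 100 gave 221 regions, of which 34 were in all 7. Of these 34, only 2 were on the arms. In Chromatin1, 68.0% of the first 250 entries and 27.7% of the later ones were shared with a Chromatin4-7 list. The shares were 50.4 and 5.45% in Chromatin2 and 55.6 and 12.3% in Chromatin3. The later entries of these 3 lists were also more often on the arms, with 37.8% in Chromatin1, 61.7% in Chromatin2 and 50.3% in Chromatin3, against 23.6, 36.0 and 34.4% of the first 250. Chromatin5, 6 and 7 have only 13, 4 and 15 later entries, of which 53.8, 75 and 60% were shared with a Chromatin1-3 list, against 58.8, 71.2 and 60.8% of their first 250. On the arms lay 7.69, 0 and 0% of these later entries, against 18.4, 12 and 16% of the first 250. These are descriptions of single lists and were not tested.

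On chromosome 4 the mutant inputs had 8 and 8 peaks (acf1-7) and 3 peaks (rsf1-3602), and on 3R they had 2, 1 and 1.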
